A study of Sus scrofa with 20 samples.

Results

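Germ cell genes were examined in RNA-Seq libraries of boar testis and liver, beginning with UCHL1, a ubiquitin hydrolase that marks spermatogonia. UCHL1 was chosen because its level is lower in testis of boars with high androstenone, and its values in that comparison are therefore a description. Together with UCHL1, 6 further germ cell genes (DAZL, DDX4, KIT, POU5F1, SYCP3 and STRA8) were looked up among the 21755 reference IDs of the data to ask whether they follow it. A reference ID was found for 4 of the 7 genes, namely UCHL1 (NM_213763.2), KIT (NM_001044525.1), POU5F1 (NM_001113060.1) and SYCP3 (XM_003126677.1). DAZL, DDX4 and STRA8 had no matched reference ID and were not analysed here.

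The study compared boars whose fat held high or low amounts of androstenone, a testicular steroid that contributes to boar taint, the off-odour of pork from entire males. The boars were entire males of a Duroc × F2 cross, labelled as 116 days old in every group, where the F2 goes back to Leicoma, German Landrace and Large White pigs. There were 5 testis samples with low androstenone, 5 testis samples with high androstenone, 5 liver samples with low androstenone and 5 liver samples with high androstenone. Each sample was 1 library. By the study's methods both tissues were taken from the same 10 boars, but the labels do not say which testis and which liver belong to 1 boar, and the samples were fitted as independent.

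Spermatogenesis begins with spermatogonia at the base of the seminiferous tubule, which renew themselves or begin to differentiate. Undifferentiated pig spermatogonia carry UCHL1 protein, and the same enzyme is abundant in neurons. KIT, the receptor for stem cell factor, appears as spermatogonia differentiate and is also carried by Leydig cells and mast cells, while POU5F1 is a transcription factor of pluripotent cells and early germ cells. DAZL and DDX4 bind and process RNA in germ cells, STRA8 acts at the entry into meiosis, and SYCP3 builds the axis along which chromosomes pair in spermatocytes. Later stages, the spermatids, hold large amounts of RNA for the acrosome, the tail and packaging of DNA.

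Total counts ranged from 6161397 to 15975386 in the 10 testis libraries and from 5796973 to 26783002 in the 10 liver libraries, so that 3 counts were worth 0.112 to 0.518 counts per 1000000 (CPM). All levels below are CPM normalized by edgeR's TMM method within each tissue, unless both tissues are compared. They are not divided by transcript length, so levels of different genes are not compared. The labelled tissues carried their own markers, since 13 of 13 spermatid genes were higher in testis and 6 of 6 hepatocyte genes were higher in liver (edgeR's quasi-likelihood test, called below an adjusted p of 0.05 when the change was 1.5-fold or more). In this comparison 43.5% of 19065 reference IDs passed as higher in testis and 32.2% as lower. Low androstenone testis 2 stood apart from the other testes. Its 13 spermatid genes summed to 4287 CPM, against 9745 to 14406 CPM in the other 9 testes, and its RNA-binding and meiotic lists were also the lowest of the 10.

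UCHL1 was lower in the high androstenone testes. The 5 low androstenone testes had 61.7, 91.5, 49.2, 90.0 and 72.9 CPM (replicates 1 to 5), and the 5 high androstenone testes had 30.6, 46.9, 40.1, 35.3 and 32.3 CPM. Every high androstenone testis was below every low androstenone testis, although the highest of the former and the lowest of the latter were close. The means were 73.1 ± 18.2 CPM (SD, n = 5) and 37.1 ± 6.58 CPM (SD, n = 5), a fitted log2 fold change of -0.98 (SE 0.20) or a 1.97-fold lower level. No test is given for this gene in testis because it was picked on this difference. Over all 18340 tested reference IDs of testis, 1.28% had every high sample below every low sample, which is 234 IDs, and 54 of these changed by at least as much as UCHL1.

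UCHL1 levels by library depth are given as a description. Groups that do not overlap keep their direction in any split or with any testis left out. Among libraries of over 10000000 counts, 3 low androstenone testes had 49.2 to 90.0 CPM and 2 high androstenone testes had 30.6 to 46.9 CPM. Among the smaller libraries, 2 low androstenone testes had 61.7 to 91.5 CPM and 3 high androstenone testes had 32.3 to 40.1 CPM. Without low androstenone testis 2, which had the highest UCHL1 level, the log2 fold change was -0.87. In whole tissue, fewer cells of a type and less RNA per cell cannot be told apart.

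**Figure D1:**
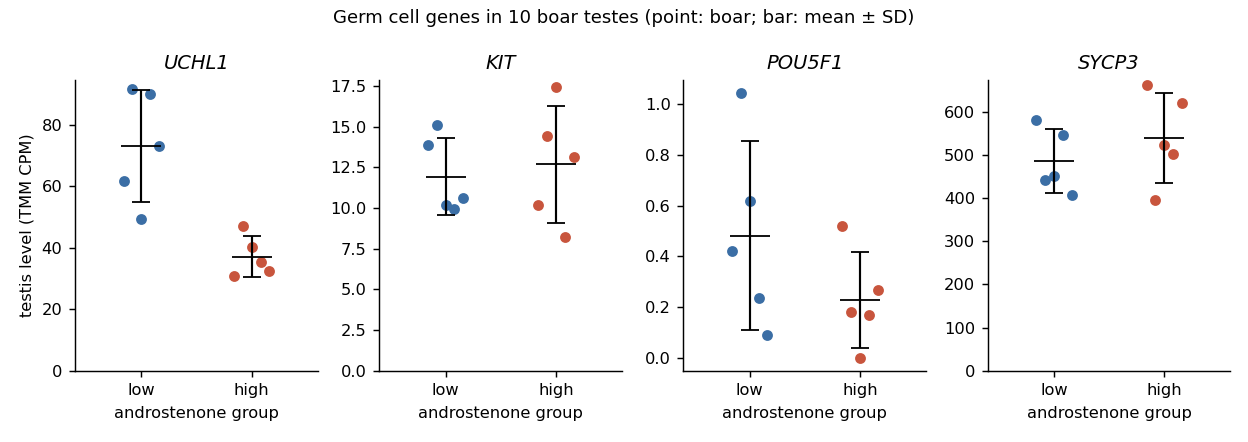
Testis levels of UCHL1, KIT, POU5F1 and SYCP3 in TMM-normalized CPM (linear axes), by androstenone group. Points are boars and bars give the mean ± SD of 5 boars. The groups separate for UCHL1 (49.2 to 91.5 against 30.6 to 46.9 CPM) and overlap for the other 3 genes.

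The other members did not separate the groups as UCHL1 did, and none passed the test. Of all 18340 reference IDs tested between high and low androstenone testes, 0% passed these thresholds with edgeR's quasi-likelihood method. The smallest adjusted p was 0.236, an unadjusted p under 0.05 was reached by 1741 IDs, and DESeq2 called 52 IDs.

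KIT, the receptor of differentiating spermatogonia, had 13.9, 15.1, 10.2, 9.93 and 10.6 CPM in the low androstenone testes and 10.2, 14.4, 17.4, 8.24 and 13.1 CPM in the high androstenone testes. The groups overlapped widely, and both the highest and the lowest testis were in the high group. The log2 fold change was 0.10 (SE 0.22, 95% interval -0.37 to 0.57), with an adjusted p of 0.907 by edgeR and p = 0.810 by exact permutation of the 5 against 5 boars (two-sided). The interval does not reach the fitted log2 fold change of UCHL1, -0.98. That value is the difference on which UCHL1 was picked, and it has its own error. Without high androstenone testis 3 the log2 fold change of KIT was -0.03. KIT also marks mast cells and Leydig cells, whose lists are described below.

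POU5F1, the factor of early germ cells, was close to the limit of detection. The low androstenone testes held 3, 7, 10, 3 and 1 counts and the high androstenone testes 7, 3, 0, 1 and 2 counts, so that the groups overlapped. Summed over 5 testes, these were 24 counts against 13. The corresponding levels were 0.481 ± 0.372 CPM (SD, n = 5) and 0.227 ± 0.191 CPM (SD, n = 5). The log2 fold change of -0.85 (SE 0.67) had a 95% interval from -2.28 to 0.59, an adjusted p of 0.706 by edgeR and p = 0.230 in the exact permutation test. A difference as large as that of UCHL1 lies inside this interval, as does no difference, and the depth does not separate them.

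SYCP3, the axis protein of meiotic chromosomes, had 582, 441, 451, 547 and 408 CPM in the low androstenone testes and 661, 396, 523, 501 and 620 CPM in the high androstenone testes. Both the lowest and the highest testis were in the high group. The means of 486 ± 74.8 CPM (SD, n = 5) and 540 ± 104 CPM (SD, n = 5) gave a log2 fold change of 0.15 (SE 0.18, 95% interval -0.23 to 0.53). The adjusted p was 0.804 by edgeR's quasi-likelihood test, and the exact permutation test gave p = 0.405. With 2954 to 8886 counts per testis, counting error was small beside the spread between boars. Exact tests of 5 against 5 boars allow no p below 0.00794.

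Over the 10 testes, no relation of the 3 other members to UCHL1 passed the permutation test, which ignored the androstenone groups. On log2(CPM + 0.5), KIT had a Pearson r of 0.10 to UCHL1 (permutation test with 100000 resamples, p = 0.770, adjusted over 3 relations 0.770) and a Spearman rho of 0.20 (p = 0.581, adjusted 0.628, by permutation). It had r of 0.11 without the 2 testes farthest from the median of UCHL1. POU5F1 had r of 0.27 (permutation p = 0.450, adjusted 0.676) and rho of 0.18 (permutation p = 0.628, adjusted 0.628), and its r was -0.12 without 2 testes, so the value rests on them. For SYCP3, r was -0.46 (permutation p = 0.180, adjusted 0.541) and rho was -0.50 (permutation p = 0.144, adjusted 0.431), and r was -0.61 without 2 testes. The androstenone groups do not overlap on UCHL1, so these r values and their p also hold the difference between the groups. They do not measure a relation from boar to boar alone. Each group holds 5 testes, which is too few for a correlation within a group.

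**Figure D2:**
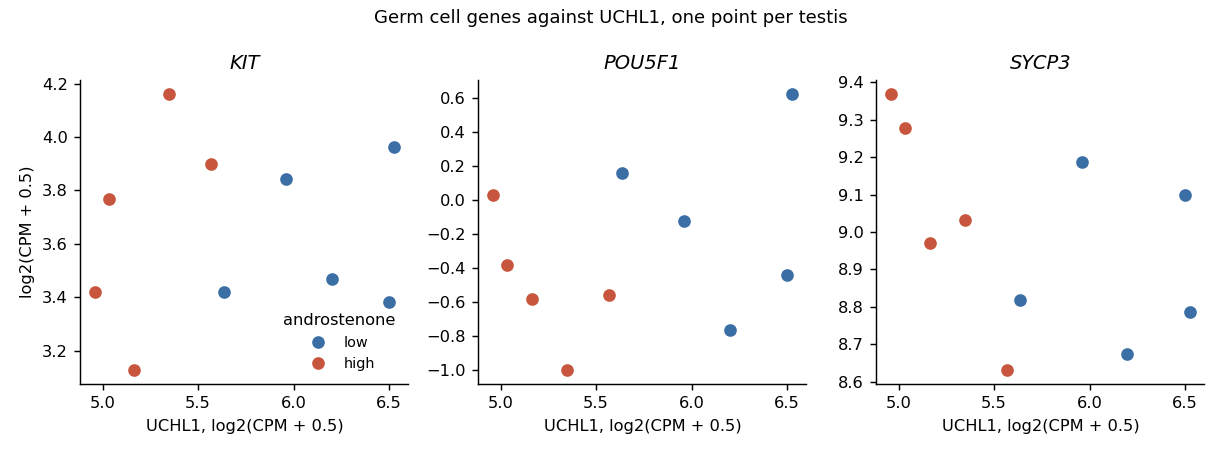
Levels of KIT, POU5F1 and SYCP3 against UCHL1 in the 10 testes, each as log2(CPM + 0.5), with one point per testis coloured by androstenone group. The points of KIT and POU5F1 scatter without a common slope (r of 0.10 and 0.27), and those of SYCP3 slope downwards with r of -0.46, which did not pass the permutation test. The r values and this test also hold the difference between the androstenone groups.

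All 4 genes were higher in testis than in liver. UCHL1 was 57.0-fold higher in testis than in liver, with a log2 fold change of 5.83 (SE 0.25, adjusted p = 5.73e-17 by edgeR's quasi-likelihood test over 20 samples). SYCP3 had a log2 fold change of 4.70 (SE 0.31, adjusted p = 3.39e-13) and KIT one of 1.45 (SE 0.22, adjusted p = 1.36e-06) in the same edgeR test. POU5F1 had 37 counts over the 10 testes and 0 in all 10 livers, which makes it at least 6.90-fold higher in testis when the livers are set to 3 counts over the group, on the library sizes of the same fit. These calls stand against the 43.5% of all IDs that passed as higher in testis, so a call by itself is common here. The fitted difference of UCHL1 and SYCP3 was far above the median of all IDs, which was 0.31 on the log2 scale.

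Liver was not free of the members. Liver levels of UCHL1 were 0.348, 0.498, 0.970, 0.137 and 0.558 CPM in the low androstenone samples and 0.337, 0.457, 0.603, 0.171 and 0.282 CPM in the high androstenone samples, from 1 to 12 counts each. KIT had 2.85, 2.84, 1.40, 0.958 and 3.35 CPM in the low and 2.36, 1.98, 2.06, 2.74 and 1.83 CPM in the high androstenone livers. SYCP3 had 15.3, 19.9, 5.71, 10.95 and 3.75 CPM in the low and 10.03, 5.18, 3.57, 14.9 and 11.3 CPM in the high androstenone livers. The groups overlapped for all 3 genes. With all 20 samples normalized together, as in the comparison of the tissues, the mean liver level of SYCP3 was 3.90% of its mean testis level, that of UCHL1 was 1.57% and that of KIT 36.1%. Of 13 spermatid genes, 11 had a smaller liver share than SYCP3, with a median of 0.0710% over the 13.

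**Figure D3:**
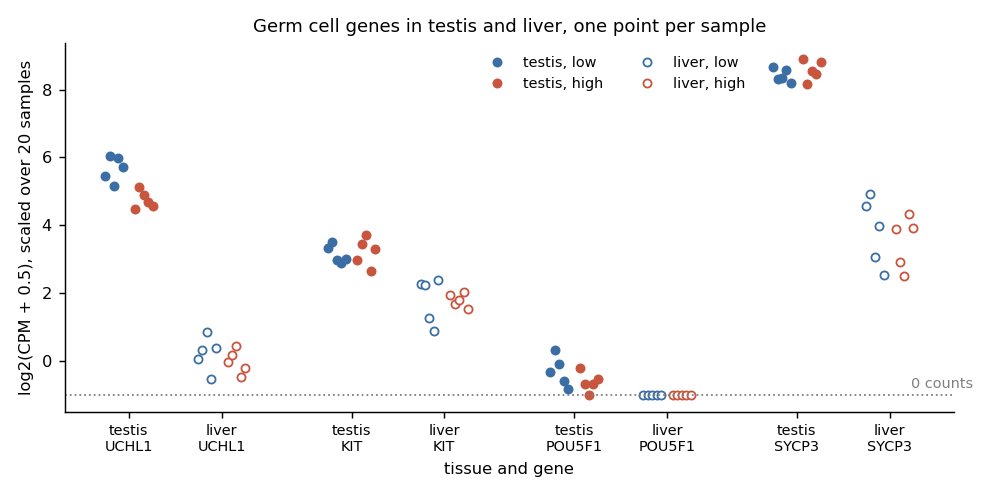
Levels of the 4 genes in 10 testes (filled) and 10 livers (open) as log2(CPM + 0.5) with all 20 samples normalized together, with one point per sample coloured by androstenone group and a dotted line at 0 counts. UCHL1 and SYCP3 lie 5.83 and 4.70 log2 units higher in testis, KIT 1.45 units higher, and POU5F1 has 0 counts in every liver.

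In liver, no member with counts passed the test between the androstenone groups. Of 15855 reference IDs tested in liver, 0% passed the thresholds, 465 had an unadjusted p under 0.05 in edgeR's quasi-likelihood test, and DESeq2 called 0. UCHL1 had a log2 fold change of -0.36 (SE 0.54, 95% interval -1.51 to 0.79), with p = 0.484 in the exact permutation test. For KIT the change was -0.08 (SE 0.36, exact permutation p = 0.921), and for SYCP3 it was -0.32 (SE 0.47, exact permutation p = 0.619). Each had an adjusted p of 0.99986 in edgeR's test. The interval of UCHL1 includes a change as large as that in testis. The difference of the 2 tissues in the androstenone effect, an interaction fitted over all 20 samples, was 0.29 (SE 0.43) for KIT and 0.62 (SE 0.53) for SYCP3 on the log2 scale, with an adjusted p of 0.999993 each in edgeR's test. The interaction was not tested for UCHL1, and 0% of 19065 IDs passed it, with 890 at an unadjusted p under 0.05 and 2 called by DESeq2.

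The wider set of spermatogonial genes was mixed. Of 32 genes on the list, 14 could be tested, and besides UCHL1 there were 13, of which 9 were lower and 4 higher in the high androstenone testes with a median log2 fold change of -0.32. None passed the thresholds, and 1 of the 13, THY1, had an unadjusted p under 0.05. The background is 52% of all tested IDs lower and 9.49% at an unadjusted p under 0.05, with a median log2 fold change of -0.02. The 13 include the members KIT and POU5F1. Many listed genes were near the floor. With all 20 samples normalized together, THY1 had 0.199 CPM in testis and POU5F1 0.252 CPM, and several others lay lower. Of 15 listed genes tested between the tissues, 9 were called higher in testis and 4 lower, against 43.5% and 32.2% of all IDs. Without UCHL1, the listed genes summed to 119, 191, 118, 125 and 107 CPM in the low androstenone testes and to 130, 129, 118, 104 and 129 CPM in the high androstenone testes. Low androstenone testis 2 was the highest, and the groups overlapped. Without this testis, 6 of the 14 genes including UCHL1 were higher and 8 lower, with a median of -0.08 in place of -0.36.

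The most abundant spermatogonial genes besides UCHL1 differed between the groups by less than the SD of the low group. DMRT1, a transcription factor of spermatogonia and Sertoli cells, had 62.2 ± 19.1 CPM (SD, n = 5) in the low and 57.4 ± 5.40 CPM (SD, n = 5) in the high androstenone testes, a log2 fold change of -0.11 (SE 0.19). TSPAN33, a tetraspanin, had 43.6 ± 9.72 CPM and 41.4 ± 4.53 CPM, a change of -0.07 (SE 0.17). In testis relative to liver, DMRT1 was 11.12 higher on the log2 scale (SE 0.37) and TSPAN33 2.88 higher (SE 0.18). THY1, a surface protein of spermatogonial stem cells and of lymphocytes and other cells, had the largest difference at -1.77 (SE 0.63), but only 0.424 ± 0.200 CPM (SD, n = 5) against 0.137 ± 0.0958 CPM (SD, n = 5). Its unadjusted p was 0.0133 and its adjusted p 0.431 by edgeR. The gene was lower in testis than in liver by a log2 fold change of -1.84 (SE 0.46).

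Among factors that neighbouring cells send to spermatogonia, 4 of 14 were measured and 0 passed. KITLG, the ligand of KIT, had 13.2 ± 1.87 CPM (SD, n = 5) in the low and 10.1 ± 3.89 CPM (SD, n = 5) in the high androstenone testes, with a log2 fold change of -0.37 (SE 0.24, adjusted p = 0.644 by edgeR's quasi-likelihood test). CXCL12, a chemokine, had a change of -0.31 (SE 0.29) and BMP4, a growth factor, one of 0.18 (SE 0.31).

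DAZL and DDX4 belong with other genes that bind RNA in germ cells or make piRNAs, and none of those tested passed. Of 29 such genes 9 were tested, and 7 were higher, 2 lower and 0 called, with a median log2 fold change of 0.12. GTSF1, a piRNA pathway factor, had 1311 ± 284 CPM (SD, n = 5) in the low and 1422 ± 200 CPM (SD, n = 5) in the high androstenone testes. MAEL and TDRD7, of the same pathway, each had a log2 fold change of 0.27 (SE 0.19). All 9 genes were called higher in testis than in liver, against 43.5% of all IDs, with a median of 7.43 on the log2 scale. The summed level was 1208 CPM in low androstenone testis 2 and at least 1759 CPM in every other testis. Without that testis 5 of the 9 were higher and 4 lower, with a median of 0.03.

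Genes of meiotic chromosomes and spermatocytes lay on both sides of 0. Of 37 genes 10 were tested, of which 3 were higher, 7 lower and 0 called, with a median log2 fold change of -0.09. HORMAD1, another axis protein, had 112 ± 20.5 CPM (SD, n = 5) against 136 ± 15.4 CPM (SD, n = 5), a change of 0.28 (SE 0.17). PGK2, the glycolytic enzyme that spermatocytes switch on, had 395 ± 116 CPM and 447 ± 74.1 CPM, a change of 0.18 (SE 0.22). SPO11, which cuts DNA to begin recombination, had a change of -0.30 (SE 0.20). It did not pass the test between testis and liver, with a log2 fold change of 0.11 (SE 0.24) and an adjusted p of 0.672 by edgeR's quasi-likelihood test. TAF7L, a transcription factor subunit of spermatogonia and spermatocytes, had the smallest p of the list. Its levels were 70.1 ± 33.2 CPM (SD, n = 5) in the low and 42.3 ± 4.82 CPM (SD, n = 5) in the high androstenone testes, a change of -0.73 (SE 0.25) with an unadjusted p of 0.0115 and an adjusted p of 0.429 in edgeR's test. Its groups overlapped, with 41.4 to 125 CPM against 37.1 to 49.8 CPM.

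No spermatid gene passed the test between the androstenone groups. Of 27 genes 13 were tested, with 12 higher, 1 lower and 0 called, and the median log2 fold change was 0.18. CRISP2, a protein of the acrosome and tail, had 2718 ± 1003 CPM (SD, n = 5) in the low and 3253 ± 617 CPM (SD, n = 5) in the high androstenone testes, and ODF2, of the outer dense fibres, had 2510 ± 874 CPM and 2670 ± 848 CPM. SPAM1, the sperm hyaluronidase, had the smallest p with a change of 0.50 (SE 0.26, adjusted p = 0.559 by edgeR's quasi-likelihood test). Without low androstenone testis 2, 7 of the 13 were higher and 6 lower, and the median was 0.01.

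**Figure D4:**
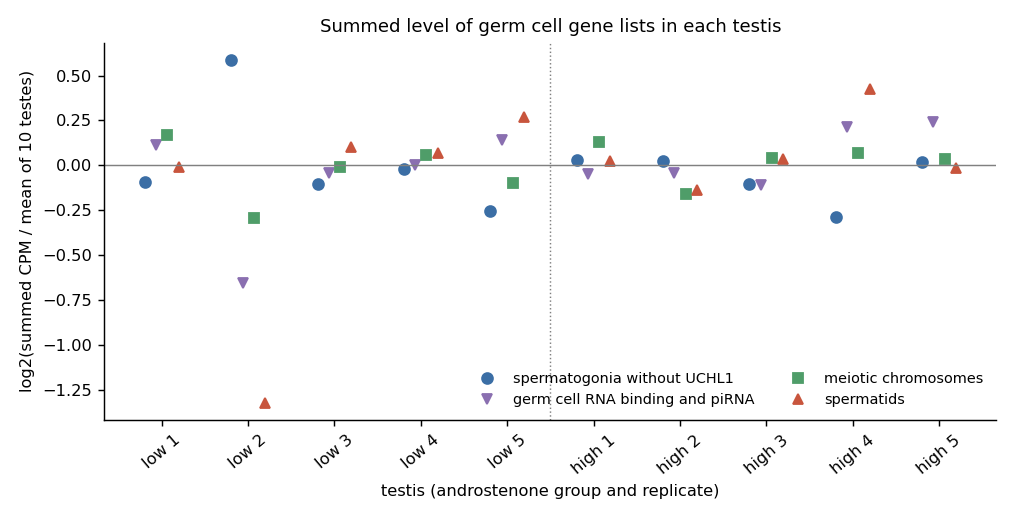
Summed level of 4 lists of germ cell genes in each of the 10 testes, as log2 of the sum over the mean of the 10 testes. Low androstenone testis 2 has the lowest spermatid sum (4287 CPM against at least 9745 CPM elsewhere) and the highest sum of spermatogonial genes without UCHL1 (191 CPM against at most 130 CPM).

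Markers of several other testis cells were also lower in the high androstenone testes on average, and their part in the UCHL1 difference was not tested. None of the markers found had 0 counts over all testes. Of 4 peritubular myoid genes, 4 were lower and 0 called, with a median log2 fold change of -0.72 and a summed level of 383 to 956 CPM in the low and 211 to 553 CPM in the high androstenone testes. ACTA2, smooth muscle actin, had a change of -0.99 (SE 0.37) and MYLK, the myosin light chain kinase, one of -0.73 (SE 0.22). Of 5 macrophage and lymphocyte genes 4 were lower, with a median of -0.82 and sums of 9.94 to 20.9 CPM against 7.57 to 10.3 CPM. CD3E, a chain of the T cell receptor complex, had 4.06 ± 1.00 CPM (SD, n = 5) in the low and 1.48 ± 0.581 CPM (SD, n = 5) in the high androstenone testes, and the groups did not overlap. Its log2 fold change was -1.45 (SE 0.31, unadjusted p = 0.000296, adjusted p = 0.320 by edgeR). PTPRC, the leukocyte common antigen, had a change of -0.82 (SE 0.25, adjusted p = 0.354 by edgeR), and CSF1R one of -0.78 (SE 0.34). Of 3 endothelial genes 3 were lower, with a median of -0.35 and sums of 21.8 to 65.0 CPM against 24.2 to 50.1 CPM. The 2 more abundant ones changed little beside their error. PECAM1 had a change of -0.35 (SE 0.32, adjusted p = 0.745 by edgeR) and KDR one of -0.04 (SE 0.25, adjusted p = 0.974 by edgeR). EDN1, the vasoconstrictor endothelin, had 3.13 ± 0.721 CPM (SD, n = 5) in the low and 0.931 ± 0.475 CPM (SD, n = 5) in the high androstenone testes, and the groups did not overlap. Its log2 fold change of -1.76 (SE 0.33) had an unadjusted p of 6.9e-05 and an adjusted p of 0.236 by edgeR, the smallest of all IDs tested in testis. By DESeq, the study listed EDN1 as lower in high androstenone testes. Its qRT-PCR of EDN1 gave the same direction in these boars and a similar pattern in other boars. HBB, the haemoglobin chain of red cells and the 1 tested gene of its list, had a change of -1.71 (SE 0.52, adjusted p = 0.354 by edgeR). Its groups overlapped, with 35.6 to 352 CPM in the low and 16.5 to 65.2 CPM in the high androstenone testes. The study listed HBB as lower too. As for UCHL1, 1.28% of all tested IDs had every high sample below every low sample.

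Sertoli and Leydig cells were less uniform. Of 9 Sertoli cell genes 7 were lower and 2 higher, with a median of -0.11, and their sum, mostly CLU, ran from 17760 to 30765 CPM in the low and from 5765 to 18929 CPM in the high androstenone testes. CLU, clusterin, had a change of -0.72 (SE 0.30), and CLDN11, the tight junction protein of Sertoli cells, one of -0.49 (SE 0.30). NR0B1 had a change of -0.89 (SE 0.35, adjusted p = 0.446 by edgeR). Of 8 Leydig cell genes 6 were higher and 2 lower, with a median of 0.37 and sums of 1647 to 6106 CPM against 1805 to 7245 CPM. CYP17A1, an enzyme of androgen and androstenone synthesis, had a change of 0.86 (SE 0.39) and INSL3, a Leydig cell hormone, one of 0.23 (SE 0.39). CYB5A had a change of 0.65 (SE 0.35). The smallest p of the list were those of SCARB1 and FDX1. Their changes were 0.78 (SE 0.26, adjusted p = 0.411 by edgeR) and 0.52 (SE 0.18, adjusted p = 0.430 by edgeR). Of 3 mast cell genes, KIT included, 3 were higher, with a median of 0.10 and sums of 11.3 to 15.5 CPM against 9.76 to 20.3 CPM. Of 5 hepatocyte genes tested, 3 were higher and 2 lower, with a median of 0.09 and sums of 51.1 to 162 CPM against 38.0 to 89.4 CPM. In none of these cell type lists was a gene called by edgeR, and DESeq2 called EDN1 and CD3E.

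**Figure D5:**
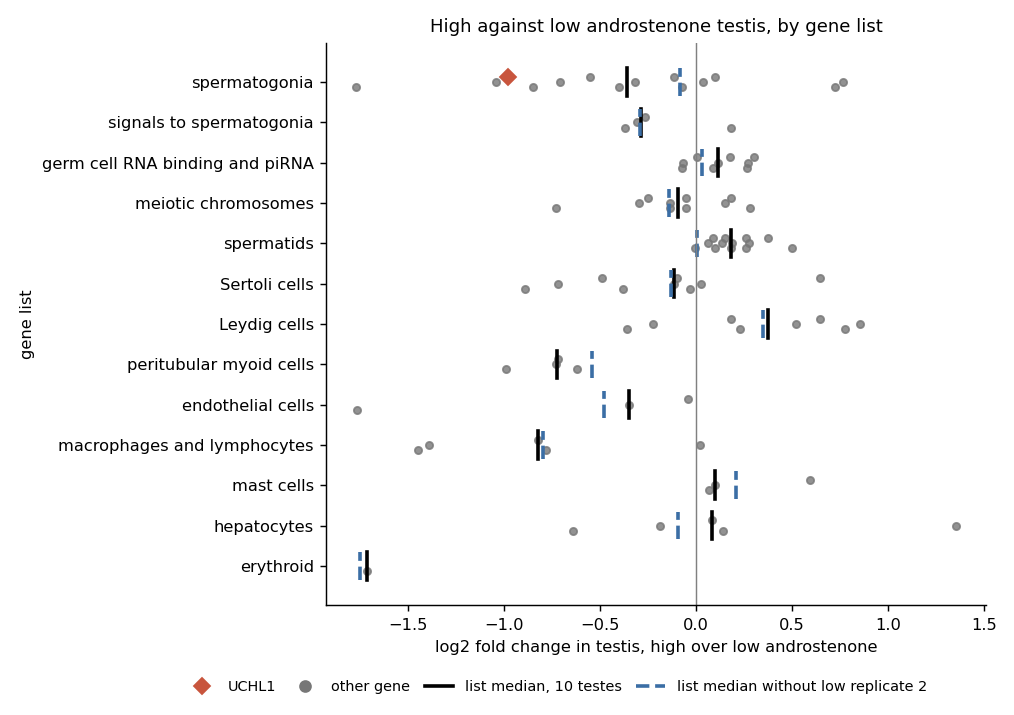
Log2 fold change of each tested gene, high over low androstenone testes, by gene list. Black lines are list medians over 10 testes and dashed blue lines those without low androstenone testis 2. UCHL1 (diamond) lies at -0.98 and is counted in the spermatogonial median. Without low androstenone testis 2, that median moves from -0.36 to -0.08 and the spermatid median from 0.18 to 0.01.

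Genes whose levels were most like UCHL1 over the 10 testes were ranked by likeness, which was the Pearson r on log2(CPM + 0.5) over 10424 IDs with a mean of at least 5 CPM, whose median r was -0.05 and of which 31 were above 0.9. The 5 named genes of highest r were MGST3 (0.967), a microsomal glutathione transferase, FABP3 (0.955), a fatty acid carrier, MYL6B (0.954), a myosin light chain, C2H19orf53 (0.941) and RBM8A (0.930), a core factor of the exon junction complex. Among named genes the lowest were those of HIF1AN (-0.959), which hydroxylates hypoxia-inducible factor, and GEMIN6 (-0.891), of the SMN complex. All 10 testes share the androstenone split of UCHL1, so these values describe that split as well. FABP3 had 36.8 ± 6.83 CPM (SD, n = 5) in the low and 19.1 ± 2.93 CPM (SD, n = 5) in the high androstenone testes, and a log2 fold change of -0.94. MYL6B had 118 ± 17.7 CPM and 76.4 ± 6.47 CPM, and a change of -0.63. HIF1AN had 10.8 ± 0.985 CPM and 15.0 ± 1.44 CPM, and a change of 0.47.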

How the data were processed

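RNA of testis and liver of the same 10 boars was sequenced by the authors (SMART cDNA, Illumina mRNA-Seq, single reads, each sample in its own lane of 1 flow-cell), processed with CASAVA 1.7 and aligned with BWA to RefSeq mRNA and UniGene sequences of Sscrofa 9.2. SAMtools is listed among the submitters' tools. The counts deposited by the authors are whole reads per reference ID, not normalized. How reads that fit several references were counted, and whether strand was used, is not given in the sources used here. Each sample has 21785 lines for 21755 IDs, since 10 IDs are listed 4 times and were used once. Symbols for 6654 IDs came from a RefSeq table of another assembly (Sscrofa11.1), used for names alone.

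IDs that reached 10 counts in all within a fit were tested with edgeR 4.0.16 (quasi-likelihood, TMM, Benjamini-Hochberg, R 4.3.3), within each tissue or over all 20 samples with 4 group coefficients. An ID was called below an adjusted p of 0.05 when its change was 1.5-fold or more. SE is the absolute log2 fold change over the square root of F. Exact permutation tests and correlations used log2(CPM + 0.5). Alternatives were DESeq2 1.42.0, other normalization, filters, pseudocounts (0.1 and 2), a joint fit, a replicate block, a trended dispersion, summed IDs and leaving out each sample. The depth class (over 10000000 counts) as a covariate was added after seeing the data. Scripts were tested on simulated data with known changes. Named genes were all members found and, per list, at most the 3 of highest mean testis level and the 2 of smallest unadjusted p. The 5 most and 2 least like UCHL1 were also named (symbols beginning with LOC left out). The nerve and Schwann cell list is not reported here. The members and lists were chosen with earlier results of these data known. Analyses used Python 3.11.15, scipy 1.17.1 and pandas 2.3.3. Floors of 3 counts and intervals of counts cover counting error only. Replicates of a group differed by more than sampling noise, with a chi-square per ID of at least 12.5 in each of 40 pairs.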

Additional observations from a re-analysis of the deposited data

How the results depend on the processing

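In testis, the count of reference IDs that differed between androstenone groups was 0 in edgeR's quasi-likelihood test, 52 with DESeq2 and its own size factors (18 higher and 34 lower, 4279 IDs without an adjusted p), and 225 with a likelihood ratio test on the trended dispersion alone. Leaving out each testis gave between 0 and 2, the 2 without low androstenone replicate 5 (XM_001927247.2 and XM_001928058.2, both higher, named after their values were seen). The interaction gave 0, and 2 with DESeq2 (XM_003130765.1, higher, and XM_003133283.1, lower). In liver the count was 0 throughout. The study, with DESeq and its own thresholds, listed genes that differed between the androstenone groups in each tissue. Testis against liver gave 14436 calls, and 14270 to 14434 with each sample left out.

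UCHL1 in testis had a log2 fold change between -1.09 and -0.87 with each testis left out and between -0.98 and -0.95 under the other alternatives. Left-out samples moved KIT in testis between -0.0256 and 0.214, reversing it without high replicate 3, POU5F1 between -1.44 and -0.47, and SYCP3 between 0.08 and 0.25. In liver, KIT lay between -0.258 and 0.0846 and reversed in 3 of 10 cases (without low replicate 1, 2 or 5), UCHL1 between -0.65 and -0.02, and SYCP3 between -0.58 and -0.00116 (without low replicate 2). Liver KIT was also reversed by the replicate block (0.0191) and by the depth class as a covariate (0.140). The cause was not tested.

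Replicate numbers were not taken to pair samples, because not every same-numbered pair had deviations correlated at r over 0.1. Between androstenone groups, which hold different boars, 3 of 5 pairs did so in testis (mean r 0.08, other numbers -0.02). In liver 2 of 5 did so (mean r 0.02, other numbers -0.004). Between testis and liver, 2 of 5 pairs did so in the low group (mean r 0.07, other numbers -0.02). In the high group 3 of 5 did so (mean r 0.17, highest 0.37, other numbers -0.04). Samples that correlated best with their own number were 3 of 10 in the low group and 4 of 10 in the high group. Same-numbered pairs were thus slightly more alike on average, which does not settle whether they come from 1 boar. The replicate block gave 0 calls in testis and liver and 14201 between the tissues, changed no other call, and UCHL1 in testis was -0.96. POU5F1 had no value under the filter of 1 CPM in 5 samples. Of the alternatives other than leaving out samples, 133 kept direction and, where a p is given, side of the threshold. In 3 a count of calls moved and in 2 a direction reversed. For UCHL1 in testis and in the interaction no test is given, so its side of the threshold was not compared. POU5F1 in all samples and UCHL1 in liver were near the floor of 3 counts, which limits what their values can show.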
